A study of Marmota monax with 203 samples.

Results

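The 9 genes described here are 8 members of the poly(ADP-ribose) polymerase (PARP) family, PARP1, PARP2, PARP8, PARP9, PARP10, PARP11, PARP12 and PARP14, and DTX3L, whose product is the binding partner of PARP9. They were chosen by name, 7 of them as interferon-responsive genes and PARP1 and PARP2 as a contrast, out of 17587 genes in the files, and all 9 had enough reads to be tested at every week. The samples were liver biopsies of adult woodchucks born in captivity and infected as neonates with woodchuck hepatitis virus (WHV), a relative of human hepatitis B virus, so that both groups were chronic carriers. One group received woodchuck interferon-α (wIFN-α) and the other placebo, each subcutaneously 3 times a week for 15 weeks. The wIFN-α dose was 20 μg per animal at weeks 0 and 3 and 100 μg at weeks 7, 11 and 15, and biopsies on treatment were taken 6 h after a dose. Week -3 preceded treatment, and weeks 19 and 23 were follow-up. The number of wIFN-α animals fell from 11 at week -3 to 6 at week 23, and that of placebo animals from 12 to 9, with 5 at week 19. Polyadenylated RNA was sequenced, and levels are reads of a gene per 1000000 reads on genes (CPM), scaled between biopsies by the TMM method.

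PARP enzymes split NAD+ and attach its ADP-ribose to proteins or nucleic acids. PARP1 and PARP2 build chains of ADP-ribose at DNA breaks, where the chains recruit repair proteins, whereas most other members transfer a single unit, and several of these are interferon-stimulated genes with antiviral roles. PARP9 binds ADP-ribose through macrodomains and acts in a complex with DTX3L, a ubiquitin ligase of the deltex family. Hepatocytes, the main cell type of the liver, carry receptors for interferon-α.

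The comparisons used 149 biopsies with 12072840 to 84805845 reads on genes (median 28754894). Animal M1004, which the study set aside, was left out. Hepatocyte markers (8 genes) took a median of 8.35% of reads, and 13 biopsies held over 1% of reads on 8 skeletal muscle markers. The week -3 biopsies of F1018 (wIFN-α) and F1016 (placebo) went against the labelled tissue, with 0.0187% and 0.0299% of reads on hepatocyte markers and 8.66% and 8.54% on muscle markers. The library labelled F1013 (wIFN-α) at week 3 had placebo-like levels of the genes below and is given with and without. In bulk tissue, fewer cells of a type and less RNA per cell cannot be told apart.

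Expression of 6 of the 9 genes, PARP9, DTX3L, PARP10, PARP14, PARP12 and PARP8, rose on wIFN-α at weeks 0, 3, 7, 11 and 15, by 3.40-fold to 14.6-fold. PARP11, although grouped with them, did not pass the test at any week, and neither did PARP1 and PARP2. Calls needed both a fold change above 1.5 and an adjusted p below 0.05 (edgeR quasi-likelihood test, Benjamini-Hochberg over all genes). Among all genes tested, 10.3% were called higher at week 0, 7.24% at week 3, 11.4% at week 7, 12.6% at week 11 and 13.4% at week 15. The share of all genes whose groups did not overlap is not given here, so that separation of groups below is a description. The median log2 fold change of the 9 genes was 1.99 at week 0 and 2.22 at week 15, beside -0.01 over all genes at both weeks. T and NK cell markers were called higher in 1 of 8 at week 0 and 8 of 8 at week 15, and their summed share was 0.00979% to 0.0254% of reads on wIFN-α and 0.00477% to 0.00779% on placebo at week 15. Proliferation markers were lower in 3 of 6 at week 0 and higher in 6 of 6 at week 15. At week 0 the summed T and NK cell share was 0.00441% to 0.0141% (median 0.0101%) on wIFN-α and 0.00597% to 0.0122% (median 0.00736%) on placebo. B and plasma cell markers were higher in 0 of 6 at week 0 and 3 of 6 at week 15 (MZB1, MS4A1 and CD79A), with a summed share of 0.00122% to 0.00812% on wIFN-α and 0.00084% to 0.00233% on placebo at week 15. Of 6 myeloid markers, CD68 was higher and ITGAM lower at week 0, and CD163 was lower at week 15. The part of these cells in the results was not tested.

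**Figure D1:**
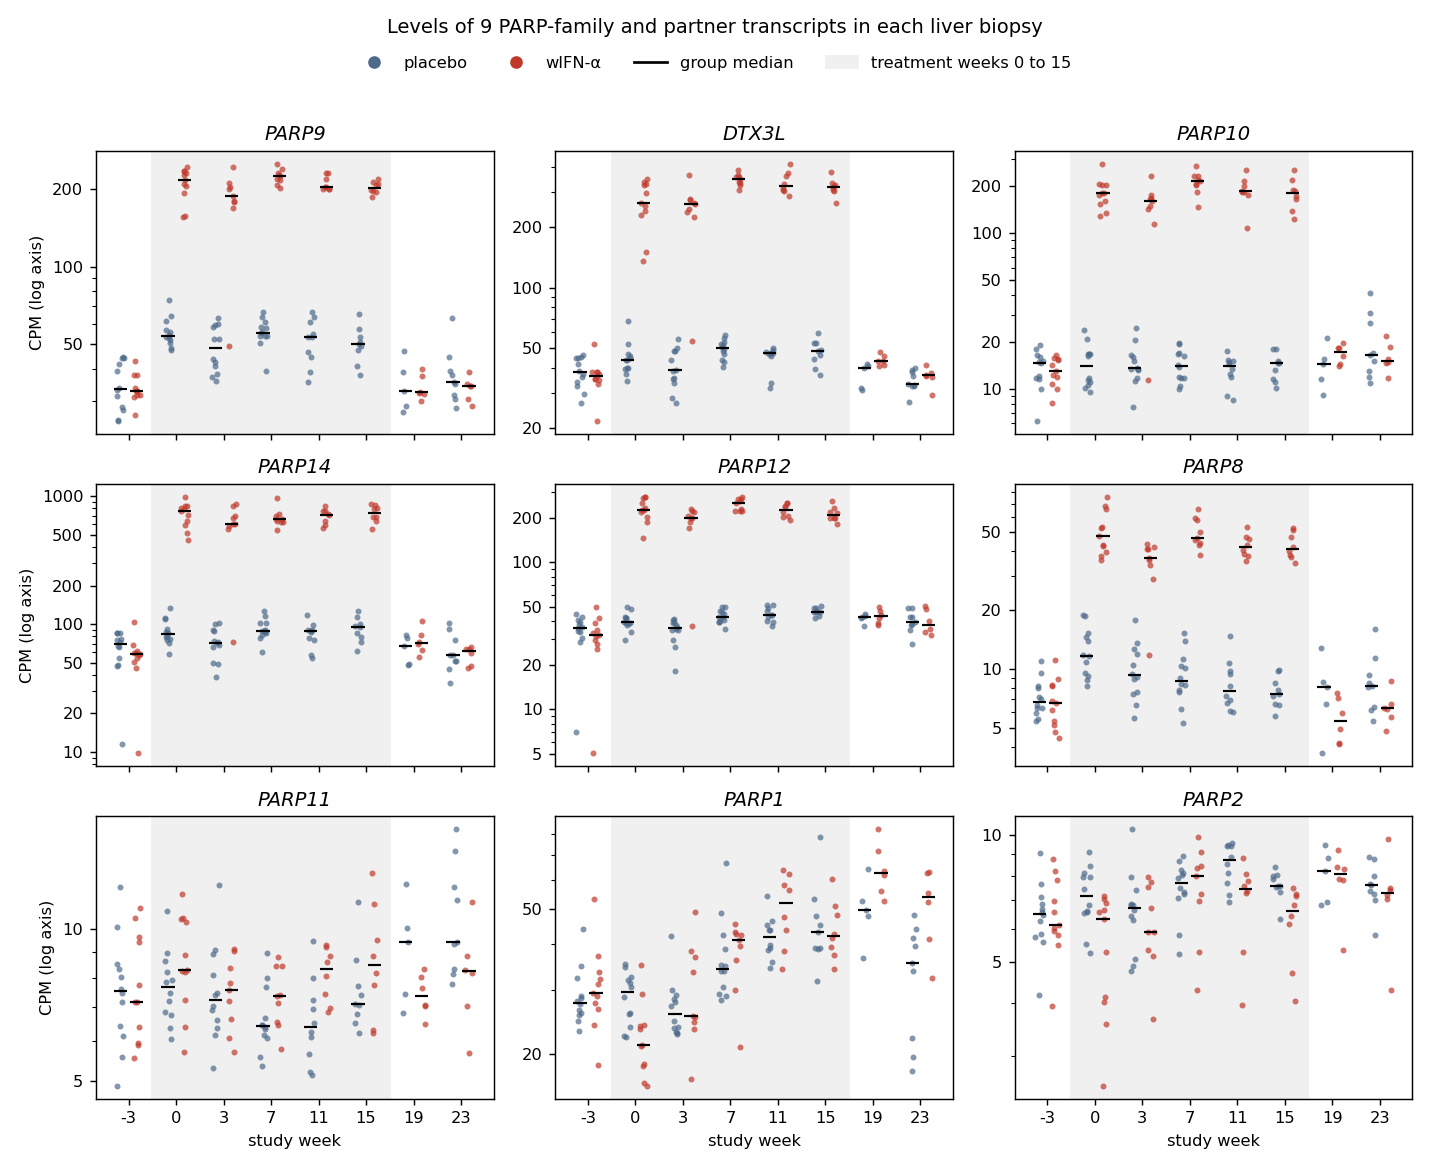
Level of each gene in every biopsy used (CPM, log axis) by study week for placebo (blue) and wIFN-α (red), with group medians as black lines and the treatment weeks shaded. For PARP9, DTX3L, PARP10, PARP14, PARP12 and PARP8, 44 of 45 wIFN-α biopsies of weeks 0 to 15 lie above every placebo biopsy of the same week.

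PARP9, the reader of ADP-ribose, rose by the steadiest amount, between 3.64-fold and 4.08-fold over the 5 treatment biopsies. At week 0 its lowest, median and highest levels were 157, 217 and 246 CPM in 11 wIFN-α animals and 47.2, 53.6 and 74.1 CPM in 12 placebo animals. The groups did not overlap, and the log2 fold change was 1.89 (SE 0.09, adjusted p = 7.1e-14, edgeR). At week 15 the levels were 187, 203 and 220 CPM in 8 wIFN-α animals and 37.8, 50.1 and 65.3 CPM in 9 placebo animals. Again there was no overlap, with a log2 fold change of 2.03 (SE 0.09, adjusted p = 4.57e-12, edgeR). Over weeks 0, 3, 7, 11 and 15 the mean level was 211, 181, 225, 212 and 204 CPM on wIFN-α and 55.8, 48.6, 55.7, 51.7 and 50.2 CPM on placebo, with F1013 included at week 3.

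DTX3L, the ubiquitin ligase partner, rose by 5.81-fold to 7.46-fold. Its lowest, median and highest levels at week 0 were 136, 264 and 348 CPM on wIFN-α and 34.3, 43.7 and 68.1 CPM on placebo. All wIFN-α animals lay above the placebo animals (log2 fold change 2.54, SE 0.15, adjusted p = 2.12e-12, edgeR). The lowest wIFN-α values of that week, 136 CPM in M1006 and 151 CPM in F1023, came from biopsies with 1.69% and 5.13% of reads on muscle markers. For PARP10 at that week, M1006 was lowest (129 CPM), but F1023 ranked 3 of 11 (206 CPM). The part of muscle in these values was not tested. At week 15, DTX3L had 265, 317 and 378 CPM on wIFN-α and 36.9, 48.6 and 59.3 CPM on placebo, without overlap (log2 fold change 2.74, SE 0.10, adjusted p = 1.97e-13, edgeR). The mean over the 5 treatment biopsies was 264, 245, 346, 335 and 318 CPM on wIFN-α and 44.6, 40.2, 49.5, 44.7 and 47.8 CPM on placebo.

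Both partners rose, but not by the same amount. To compare them, the log2 ratio of the 2 genes within each biopsy was tested between the groups, as for all 21 pairs of the 7 genes grouped as responsive, with p-values adjusted over the 21 pairs of a week. The ratio of PARP9 to DTX3L at week 0 was 0.33 ± 0.16 (SD, n = 12) on placebo and -0.28 ± 0.24 (SD, n = 11) on wIFN-α. The difference was -0.62 (two-sided permutation test with 100000 resamples, adjusted p = 6e-05). At week 15 the ratio was 0.07 ± 0.09 (SD, n = 9) on placebo and -0.64 ± 0.14 (SD, n = 8) on wIFN-α. The difference was -0.70 (two-sided exact permutation test, adjusted p = 0.000157), and its unadjusted p of 8.23e-05 is the smallest that these animals can give. DTX3L thus rose by more than PARP9 at both weeks.

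PARP10, a mono-ADP-ribosyltransferase, had the largest fold change of the 9 genes at each of the 5 treatment biopsies, 9.73-fold to 14.6-fold. At week 0 its lowest, median and highest levels were 129, 180.3 and 279 CPM on wIFN-α and 9.52, 13.98 and 23.9 CPM on placebo. The groups were far apart, with a log2 fold change of 3.61 (SE 0.17, adjusted p = 3.03e-14, edgeR) that ranked 52 among 14700 genes. At week 15 PARP10 stood at 124, 181 and 257 CPM on wIFN-α and 10.1, 14.6 and 18.1 CPM on placebo. Its log2 fold change was then 3.70 (SE 0.16, adjusted p = 2.65e-12, edgeR), rank 92 among 14943 genes, again without overlap. Means over the treatment biopsies were 183, 147, 213, 189 and 182 CPM on wIFN-α, while those on placebo stayed between 13.2 and 14.8 CPM.

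PARP14, a large transferase with macrodomains that is known as a cofactor of STAT6, rose by 7.38-fold to 8.33-fold. Its levels at week 0 (lowest, median and highest) were 451, 768 and 989.5 CPM on wIFN-α and 58.6, 83.4 and 134 CPM on placebo, which gave a log2 fold change of 3.00 (SE 0.15, adjusted p = 4.9e-14, edgeR). At week 15 they were 554, 739 and 863 CPM against 61.9, 95.1 and 126 CPM (log2 fold change 3.00, SE 0.14, adjusted p = 5.88e-12, edgeR). The groups did not overlap at either week. The highest placebo value at week 0 came from F1015, which also had the highest PARP9 and DTX3L levels of the placebo group at that week.

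PARP12, a zinc finger transferase that restricts RNA viruses, rose by 4.66-fold to 5.73-fold. At week 0 its lowest, median and highest levels were 147, 227 and 279.5 CPM on wIFN-α and 29.8, 39.1 and 49.8 CPM on placebo (log2 fold change 2.49, SE 0.11, adjusted p = 8.67e-15, edgeR). At week 15 they were 182, 209 and 262 CPM and 41.6, 46.0 and 50.2 CPM (log2 fold change 2.22, SE 0.07, adjusted p = 7.62e-14, edgeR). No wIFN-α animal overlapped with the placebo animals at either week. The rises of DTX3L and PARP12 differed by 0.02 log2 units at week 0 (adjusted p = 0.86, permutation test with 100000 resamples). At week 15 DTX3L had risen by 0.53 log2 units more than PARP12 (adjusted p = 0.000399, exact permutation test). Whether this difference changed between the 2 weeks was not tested.

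PARP8, a less studied transferase, rose by 3.40-fold to 5.57-fold. Its levels at week 0 were 36.2, 47.9 and 76.1 CPM (lowest, median and highest) on wIFN-α and 8.22, 11.7 and 18.9 CPM on placebo, a log2 fold change of 1.99 (SE 0.16, adjusted p = 5.56e-10, edgeR). At week 15 they were 34.9, 41.0 and 52.6 CPM and 5.76, 7.47 and 9.91 CPM, a log2 fold change of 2.48 (SE 0.12, adjusted p = 1e-11, edgeR). The groups were separate at both weeks. The mean PARP8 level over weeks 0, 3, 7, 11 and 15 was 51.1, 35.1, 50.1, 42.9 and 43.0 CPM on wIFN-α and 12.6, 10.1, 9.47, 8.60 and 7.74 CPM on placebo, so that the placebo mean was lower at each later week.

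PARP11, another mono-ADP-ribosyltransferase, went against its grouping with the responsive genes. At week 0 its lowest, median and highest levels were 5.70, 8.27 and 11.7 CPM on wIFN-α and 6.05, 7.65 and 10.8 CPM on placebo, and the groups overlapped over nearly their whole range (log2 fold change 0.14, SE 0.12, adjusted p = 0.386, edgeR). At week 15 they were 6.22, 8.48 and 12.9 CPM and 6.21, 7.08 and 11.3 CPM. The log2 fold change was 0.22 (SE 0.15, adjusted p = 0.252, edgeR), with a 95% interval from -0.07 to 0.52. The largest estimate, 0.28 at week 11 (SE 0.12, adjusted p = 0.0674, edgeR), also missed the threshold. PARP11 had 95 to 936 reads per biopsy, with a median of 213.

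**Figure D2:**
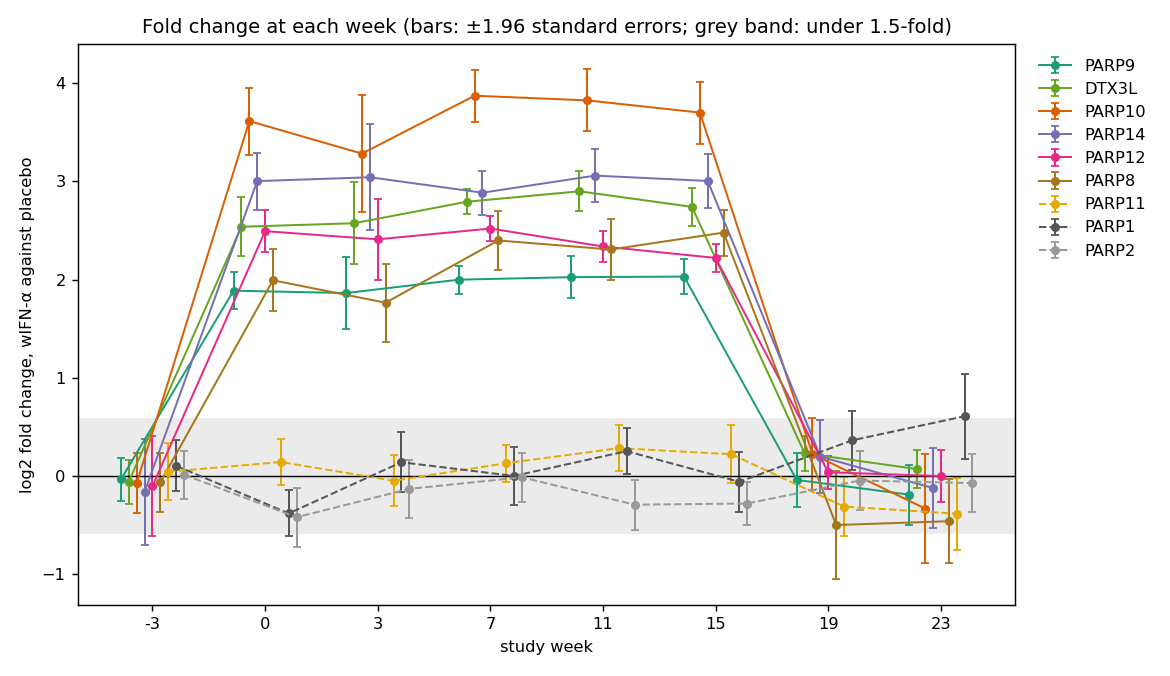
Log2 fold change of wIFN-α against placebo (y axis) by study week (x axis) for the 9 genes, with bars for the 95% interval and a grey band for changes under 1.5-fold. PARP10 is highest at each treatment week (3.28 to 3.87), and the estimates of PARP11, PARP1 and PARP2 (broken lines) lie within the band at weeks 0 to 15.

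PARP1 and PARP2, the enzymes of the DNA break response, were not called at any week but were lower at week 0. PARP1 then had 16.3, 21.2 and 35.1 CPM (lowest, median and highest) on wIFN-α and 22.2, 29.6 and 35.2 CPM on placebo. The ranges overlapped, although 6 of 11 wIFN-α animals lay below every placebo animal. The log2 fold change of -0.38 (SE 0.12, adjusted p = 0.0149, edgeR) passed the p threshold and not the fold threshold. PARP2 had 2.55, 6.33 and 7.14 CPM on wIFN-α and 5.25, 7.14 and 9.09 CPM on placebo (log2 fold change -0.42, SE 0.15, adjusted p = 0.0351, edgeR), with 4 of 11 wIFN-α animals below every placebo animal. Of 14700 genes tested at week 0, 6290 had an unadjusted p under 0.05 and 8.15% were called lower (edgeR). From the highest fold change down, PARP1 ranked 12095 and PARP2 12365 of these genes. With each of the 23 animals left out in turn, the adjusted p of PARP1 stayed between 0.00168 and 0.0294 (edgeR). That of PARP2 lay between 0.0239 and 0.0628 (the largest without M1007), under 0.05 in 15 of 23 fits. At week 15 the log2 fold changes were -0.06 for PARP1 (SE 0.16, adjusted p = 0.791, edgeR) and -0.28 for PARP2 (SE 0.11, adjusted p = 0.057, edgeR).

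F1013 at week 3 was the exception to the rise. Its levels were 48.9 CPM of PARP9, 54.6 of DTX3L, 11.4 of PARP10, 72.7 of PARP14, 36.8 of PARP12 and 11.9 of PARP8, each within the range of the 12 placebo animals of that week. The lowest of the other 8 wIFN-α animals had 169 CPM of PARP9, 226 of DTX3L, 114 of PARP10, 549.5 of PARP14, 172 of PARP12 and 29.0 of PARP8. At weeks 0, 7, 11 and 15, F1013 lay above every placebo animal in the 6 genes. Its week 3 biopsy held 10.2% of reads on hepatocyte markers and 0.0181% on muscle markers. Without F1013, the log2 fold change at week 3 was 3.44 for PARP10, 3.19 for PARP14, 2.70 for DTX3L, 2.55 for PARP12, 1.99 for PARP9 and 1.88 for PARP8, compared with 3.28, 3.04, 2.57, 2.41, 1.86 and 1.76 with it. The 6 genes were called either way.

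**Figure D3:**
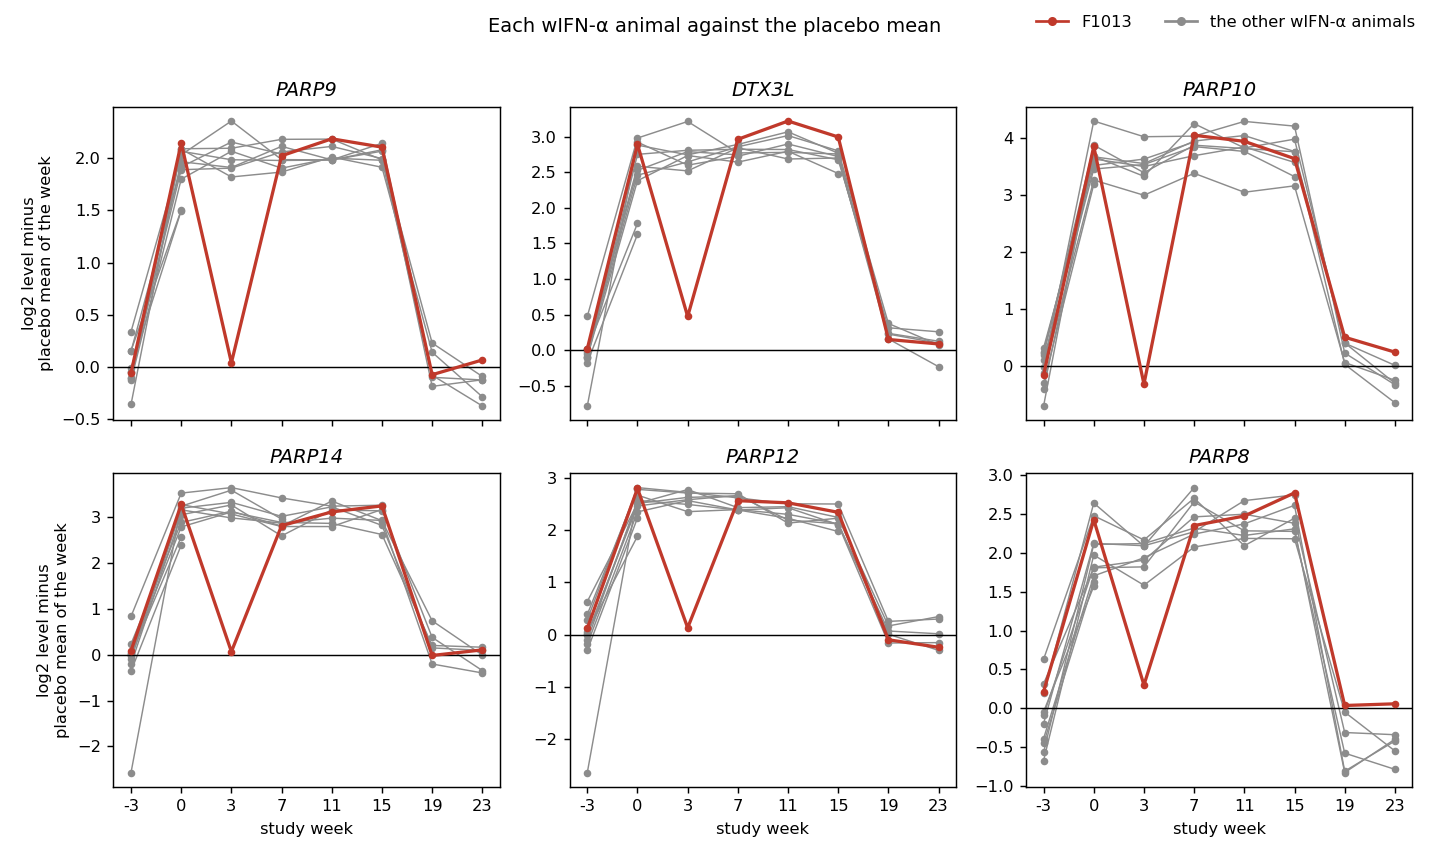
Log2 level of each wIFN-α animal minus the placebo mean of the same week (y axis) by study week (x axis), 1 line per animal, for the 6 raised genes, with F1013 in red and the other wIFN-α animals in grey. Lines are high from week 0 to week 15 and lower at weeks -3, 19 and 23, and F1013 drops at week 3 to 0.04 for PARP9 and -0.32 for PARP10.

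The spread over treated biopsies, which pools animals and weeks, was smallest for PARP9. Without F1013 at week 3, the log2 level minus the placebo mean had an SD of 0.15 for PARP9, 0.23 for PARP12, 0.27 for PARP14, 0.29 for DTX3L, 0.32 for PARP10 and 0.33 for PARP8 over 44 biopsies. It ranged from 1.499 to 2.36 for PARP9 and from 3.00 to 4.30 for PARP10. Some animals held their place among the wIFN-α animals. For PARP10, F1014 was highest at weeks 0, 3, 11 and 15 (279, 233, 256 and 257 CPM) and M1003 lowest at weeks 7, 11 and 15 (148, 108 and 124 CPM), from 13.1 and 12.2 CPM at week -3. For PARP2, F1022 was lowest at all 8 weeks, week -3 included, with 2.55 to 5.33 CPM.

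Before and after treatment, 0 of the 9 genes were called, and 0% of all genes were called at weeks -3, 19 and 23 (edgeR). At an unadjusted p under 0.05 there were 0 of the 9 genes at week -3, 2 at week 19 and 2 at week 23, and DESeq2 and limma-voom called 0 at each. Of all genes tested, 130 of 14963, 1859 of 14715 and 2416 of 14956 had such a p at these weeks (edgeR). PARP10 at week 19 had 14.1, 17.2 and 19.6 CPM (lowest, median and highest) in 6 wIFN-α animals and 9.12, 11.6, 14.5, 15.5 and 21.2 CPM in the 5 placebo animals. PARP14 had 54.8, 71.2 and 105 CPM in the former and 47.5, 48.7, 67.9, 78.4 and 81.4 CPM in the latter. Both genes overlapped between the groups. The lower values of p at week 19 belonged to DTX3L (log2 fold change 0.23, SE 0.09, adjusted p = 0.364, edgeR), with 4 of 6 wIFN-α animals above every placebo animal, and to PARP1 (0.36, SE 0.15, adjusted p = 0.371, edgeR). At week 23 they belonged to PARP1 (0.61, SE 0.22, adjusted p = 0.266, edgeR) and PARP8 (-0.46, SE 0.22, adjusted p = 0.309, edgeR). In 1 fit of all weeks, PARP1 was called at week 23 (0.62, adjusted p = 0.0292, edgeR), and it was not once the animal was a replicate block and the group difference of week -3 was subtracted, which changes both settings together (0.42, adjusted p = 0.281, edgeR).

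At week -3, PARP14 and PARP12 were lowest in F1018 and F1016, the biopsies that held almost no hepatocyte reads. They had 9.75 and 11.54 CPM of PARP14 and 5.01 and 6.97 CPM of PARP12. Each was also lowest of its group for PARP9 (26.5 and 25.1 CPM), DTX3L (21.8 and 26.6) and PARP10 (8.15 and 6.24). For PARP8 this held for F1018 only (4.43 CPM). Among biopsies under 1% muscle reads, the lowest values were 45.6 CPM of PARP14 and 25.8 CPM of PARP12 on wIFN-α (n = 9) and 46.6 and 28.8 CPM on placebo (n = 11). F1020, with 1.08% muscle reads and 11.1% hepatocyte reads, had 50.5 CPM of PARP14, 27.9 of PARP12 and 23.96 of PARP1. PARP1 was highest in F1018 and F1016, with 53.2 CPM in F1018 and 44.1 CPM in F1016, above all others of that week. Without the 3 biopsies over 1% muscle reads the count of called genes at week -3 was again 0.

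For the return after treatment, the week 15 effect was subtracted from the week 19 effect in 1 fit of all 8 weeks. This fit had no term for the animal and treated repeated biopsies of an animal as independent. All 6 raised genes passed as lower, as did 10.2% of 16232 genes. The differences were -3.45 log2 units for PARP10 (SE 0.35, adjusted p = 1.68e-15, edgeR), -2.95 for PARP8 (SE 0.31, adjusted p = 1.39e-14, edgeR) and -2.78 for PARP14 (SE 0.35, adjusted p = 7.14e-11, edgeR). They were -2.49 for DTX3L, -2.16 for PARP12 and -2.04 for PARP9. PARP11 (-0.51), PARP1 (0.44) and PARP2 (0.26) did not pass. With the animal as a replicate block, 6 genes passed again. Measured against each animal's own week -3 biopsy, where that held under 1% muscle reads, PARP9 on wIFN-α was up by a median of 2.65 log2 units at week 15 (n = 6) and 0.01 at week 19 (n = 5), and PARP10 by 3.81 and 0.30.

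Whether the effect at 100 μg differed from that at 20 μg was tested as week 15 against the mean of weeks 0 and 3. The same fit without a term for the animal was used. None of the 9 genes passed, where 2.26% of all genes did (edgeR, with 1 of 9 at an unadjusted p under 0.05, and 0 by limma-voom). That gene was PARP8, with an effect 0.58 log2 units larger at week 15 (SE 0.22, adjusted p = 0.165, edgeR). With the animal as a replicate block, the difference of PARP8 was 0.55 and passed (adjusted p = 0.0443, edgeR), and over 18 alternatives its adjusted p ranged from 0.0443 to 0.324. The intervals of the other raised genes all included 0, with differences of 0.23 for PARP10 (-0.26 to 0.72), 0.16 for DTX3L (-0.17 to 0.49), 0.13 for PARP9 (-0.17 to 0.43), -0.04 for PARP14 (-0.54 to 0.46) and -0.25 for PARP12 (-0.65 to 0.14). Dose and time on treatment cannot be told apart, because the dose rose at the same time in all animals.

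From week 0 to week 3 the effect differed for 0 of 9 genes (2.4% of all genes), from week 3 to week 7 for 0 of 9 (1.15%) and from week 7 to week 15 for 0 of 9 (0.0246%). Unadjusted p-values under 0.05 (edgeR) numbered 1, 2 and 0 of 9, and limma-voom called 0 at each step. They were those of PARP1 at the first step (0.53, SE 0.21, adjusted p = 0.171, edgeR) and of PARP8 (0.63, SE 0.24, adjusted p = 0.259, edgeR) and PARP10 (0.58, SE 0.27, adjusted p = 0.416, edgeR) at the next. Between females and males, the effect at week 15 differed for 0 of 9 genes and 0% of all genes (edgeR), with 0 of 9 at an unadjusted p under 0.05 and 0 by DESeq2 and limma-voom.

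Of the 21 pairs of genes grouped as responsive, 19 changed by different amounts at week 0 and 18 at week 15 (permutation tests, adjusted p under 0.05). The 6 pairs with PARP11, which did not rise, are among them, and of the 15 pairs of raised genes 13 differed at week 0 and 12 at week 15. PARP10 rose by 0.64 log2 units more than PARP14, the gene nearest to it, at week 0 (adjusted p = 0.00111, permutation test) and by 0.67 more at week 15 (adjusted p = 0.00417, exact permutation test). The pairs that did not pass were PARP9 with PARP8 (-0.11) and DTX3L with PARP12 (0.02) at week 0, and PARP9 with PARP12 (-0.17), DTX3L with PARP8 (0.28) and PARP12 with PARP8 (-0.26) at week 15. PARP11 differed from each of the other 6 genes, by 1.76 to 3.51 log2 units at week 0 and by 1.84 to 3.49 at week 15.

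**Figure D4:**
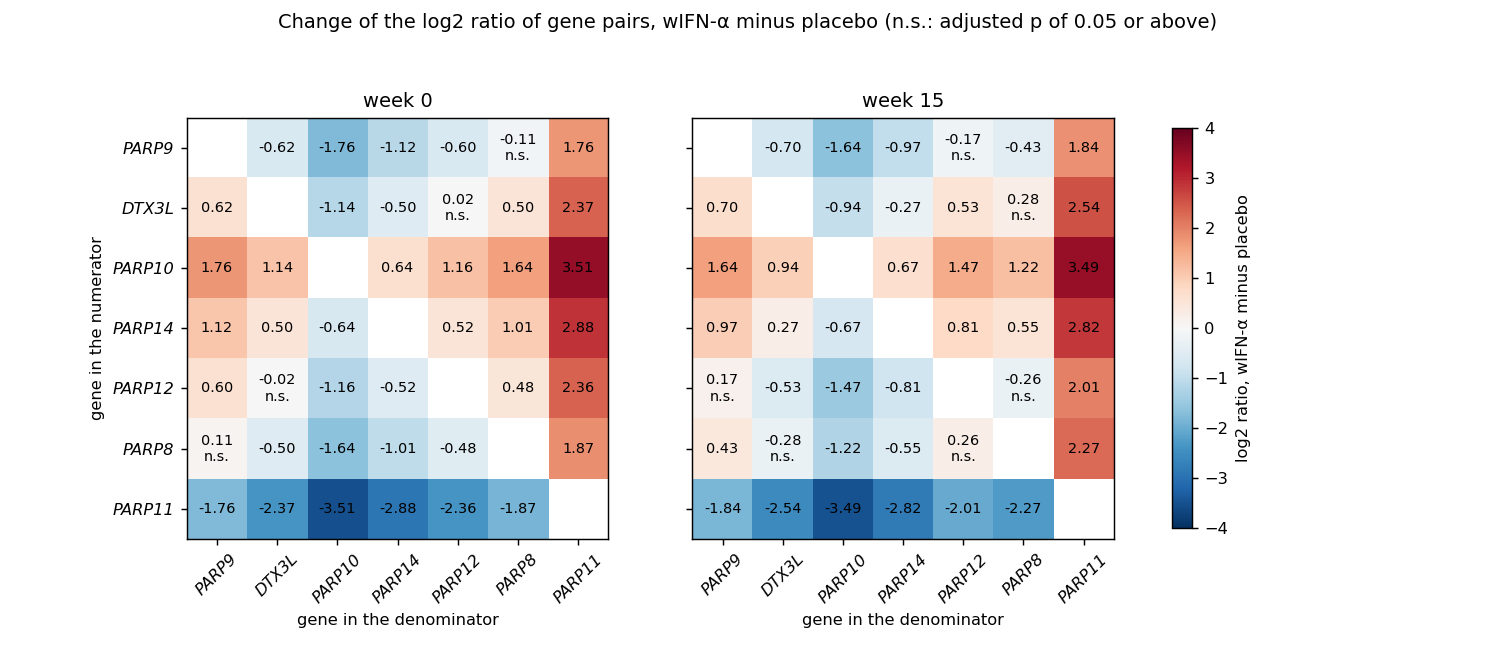
Difference between wIFN-α and placebo in the log2 ratio of 2 genes (row over column), by color from -4 to 4, at week 0 (left) and week 15 (right), with n.s. where the adjusted p was 0.05 or above. The row of PARP10 is positive and that of PARP11 negative in every cell, and PARP9 over DTX3L is -0.62 at week 0 and -0.70 at week 15.

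Levels of different genes were compared per kilobase of their sequence in the authors' assembly. Over 81 placebo biopsies the order by the median was PARP14 (7.49 CPM per kilobase), DTX3L (7.41), PARP12 (6.47), PARP9 (5.42), PARP1 (4.70), PARP10 (4.11), PARP2 (3.87), PARP11 (1.21) and PARP8 (0.811). From PARP14 to PARP2, neighbours differed by less than the larger SD of the 2 genes. PARP2 was above PARP11 in 81 of 81 biopsies and PARP11 above PARP8 in 68, both by more than that SD. Over 45 wIFN-α biopsies of weeks 0 to 15 the order was PARP14 (65.3 CPM per kilobase), DTX3L (53.3), PARP10 (52.1), PARP12 (35.6), PARP9 (23.4), PARP1 (5.16), PARP8 (4.14), PARP2 (3.56) and PARP11 (1.34). The steps from PARP10 to PARP12, to PARP9 and to PARP1 and from PARP2 to PARP11 exceeded the SD, and the others did not. By the median, PARP10 was thus below PARP12 and PARP9 on placebo and above both on wIFN-α.

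**Figure D5:**
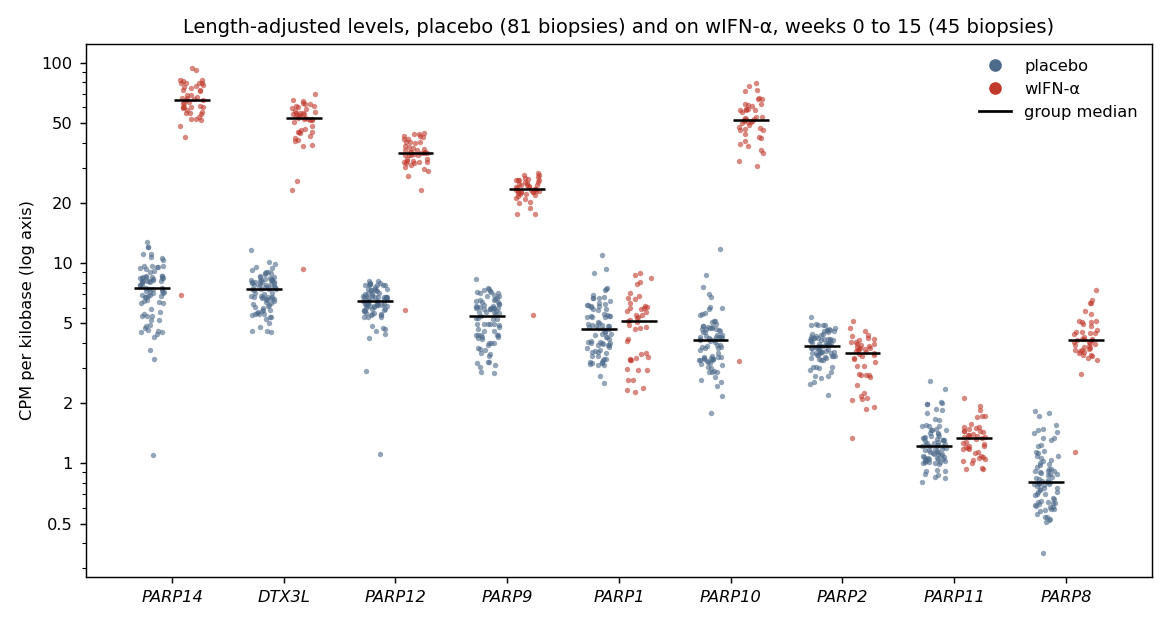
Level per kilobase (CPM per kilobase, log axis) of each gene in 81 placebo biopsies (blue) and 45 wIFN-α biopsies of weeks 0 to 15 (red), 1 point per biopsy and a black line at the median, with genes ordered by the placebo median. PARP14 is highest in both groups, PARP10 moves from 4.11 to 52.1, and PARP11 lies at 1.21 and 1.34.

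Placebo levels were not constant over the study, and these changes were not tested. PARP9 was 34.8 ± 7.54 CPM (SD, n = 12) at week -3, 55.8 ± 7.61 (SD, n = 12) at week 0 and 34.9 ± 8.13 (SD, n = 5) at week 19. In 11 of 11 placebo animals whose week -3 biopsy held under 1% muscle reads, PARP9 and PARP8 were higher at week 0 than at week -3, by medians of 0.74 and 0.75 log2 units. PARP10 was higher in 3 of these 11. PARP1 went from 27.03 ± 5.42 CPM (SD, n = 12) at week 3 to 50.1 ± 9.94 (SD, n = 5) at week 19 and was 33.6 ± 11.1 (SD, n = 9) at week 23. The median share of hepatocyte markers in placebo biopsies was 13.0% at week -3 and 9.58% at week 0, and its part in these changes was not tested.

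Among themselves the genes varied together only in part. Over 75 placebo biopsies of 12 animals without the muscle-rich ones, Pearson's r of log2 levels was 0.86 for DTX3L with PARP14, 0.82 for PARP9 with DTX3L and 0.82 for PARP9 with PARP14, but 0.20 for PARP9 with PARP10 and 0.013 for DTX3L with PARP10. Over 39 wIFN-α biopsies of 9 animals at weeks 0 to 15, without F1013 at week 3, r was 0.64 for PARP9 with DTX3L, 0.21 for DTX3L with PARP14 and -0.39 for PARP10 with PARP14. The biopsies share animals and weeks, so that these values are a description.

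Over all 149 biopsies, the genes whose log2(CPM + 1) was most like the mean standardized level of the 7 genes grouped as responsive were MLKL (r = 0.979), RNF213 (0.978), GBP1 (0.978), TRAFD1 (0.978) and ADAR (0.977). The genes most like PARP1 were GINS4 (0.807), ZNF664 (0.799) and NAA35 (0.798), and those most like PARP2 were C15orf17 (0.595), PKLR (0.547) and DNAJC12 (0.546). The points share animals, and treated and untreated biopsies are pooled.

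Of 8 other PARP family genes tested, 2 rose and 1 fell at week 0, and 2 rose and 1 fell at week 15, where 8.15% and 8.83% of all genes were called lower. TIPARP, a mono-ADP-ribosyltransferase, rose by 1.30 log2 units at week 0 (SE 0.17, adjusted p = 1.48e-06, edgeR) and 1.56 at week 15 (SE 0.13, adjusted p = 3.46e-08, edgeR). ZC3HAV1, the zinc finger antiviral protein, rose by 1.15 (SE 0.09, adjusted p = 4.12e-10, edgeR) and 1.48 (SE 0.07, adjusted p = 1.12e-11, edgeR). PARP16, an enzyme of the endoplasmic reticulum, fell by 0.67 at week 0 (SE 0.21, adjusted p = 0.0174, edgeR) and by 1.08 at week 15 (SE 0.24, adjusted p = 0.00142, edgeR).

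Genes that remove ADP-ribose were called in 0 of 6 tested at week 0 and 0 of 7 at week 15 (edgeR, with 2 and 3 at an unadjusted p under 0.05). Among them PARG, which degrades the chains, was 0.54 log2 units higher at week 0 (SE 0.14, adjusted p = 0.00336, edgeR), under the fold threshold. OARD1 (C6orf130) was 0.41 lower at that week (SE 0.12, adjusted p = 0.0108, edgeR), also under it. Both genes were chosen after their values were seen. At week 15 PARG was 0.27 higher and OARD1 0.29 lower (adjusted p = 0.042 and 0.0116, edgeR). Partners of PARP1 in DNA repair were called in 0 of 8 at both weeks (edgeR, with 5 and 4 at an unadjusted p under 0.05). Of all genes tested, 6290 of 14700 at week 0 and 7372 of 14943 at week 15 had an unadjusted p under 0.05 (edgeR). The same weeks had 10.3% and 13.4% of all genes called higher and 8.15% and 8.83% called lower. Of 4 deltex ligases related to DTX3L, 0 were called at week 0 (edgeR, with 1 at an unadjusted p under 0.05) and 1 rose at week 15, DTX3 (1.5002 log2 units, SE 0.29, adjusted p = 0.000489, edgeR). The other tools were not run on these lists.

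Genes of NAD+ metabolism, which sets the supply of the PARP substrate, rose in 2 of 7 tested at week 0 and 3 of 8 at week 15, where 10.3% and 13.4% of all genes were called higher, and 0 fell. NAMPT, the rate-limiting enzyme of NAD+ salvage, rose by 1.31 log2 units at week 0 (SE 0.08, adjusted p = 3.19e-12, edgeR) and 1.34 at week 15 (SE 0.06, adjusted p = 2.58e-12, edgeR). NMNAT1, the nuclear NAD+ synthase, rose by 0.69 at both weeks (adjusted p = 3.06e-06 and 4.41e-07, edgeR). CD38, which consumes NAD+ and is also carried by lymphoid cells, rose by 1.90 at week 15 (SE 0.47, adjusted p = 0.00327, edgeR). Also called higher at that week were 8 of 8 T and NK cell, 3 of 6 B and plasma cell and 6 of 6 proliferation markers. The part of these cells in the rise of CD38 was not tested.

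The titles give a lane number for each run, but index sequences recur within a number, so that a number pools several sequencing lanes and no comparison within a lane was made. Within each of 7 lane numbers, wIFN-α minus placebo biopsies at weeks 0 to 15 differed in mean log2 level by 2.59 to 3.79 for PARP10, 2.49 to 3.17 for PARP14, 2.24 to 2.81 for DTX3L, 1.98 to 2.40 for PARP12, 1.87 to 2.24 for PARP8 and 1.60 to 2.03 for PARP9. For PARP11 the range was -0.06 to 0.20. The library of F1013 at week 3, of lane number 2, was included. That number gave the lowest difference for PARP10, PARP14, PARP12, PARP8 and PARP9. Repeat runs of a biopsy, in 37 biopsies, differed by medians of 0.04 log2 units for PARP14 to 0.15 for PARP11.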

How the data were processed

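Per the paper's methods, polyadenylated RNA was sequenced as paired reads of 50 nt, aligned with Bowtie2 to a woodchuck transcriptome that the authors assembled and named by homology, and counted with SAMtools. The authors deposited RPKM values and estimated counts per gene and run. The deposited estimated counts (118 of 3368022 nonzero values were not whole) were rounded and summed over runs, which made 164 biopsies from 203 runs. The deposited RPKM served only to derive gene lengths. The versions of Bowtie2 and SAMtools are not given in the sources used here. The virus row was kept out. Study weeks were inferred by matching the label weeks to the study's biopsy weeks, 1 below the label for weeks after the start. Left out were 7 biopsies of M1004 and 8 at other weeks or labelled as taken at death.

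Groups were compared per week with edgeR 4.0.16 (quasi-likelihood, TMM, filterByExpr), and effects between weeks in 1 fit of 149 biopsies (adjusted p under 0.05). This fit had no term for the animal, so that it treated repeated biopsies of an animal as independent. Only the alternative with the animal as a replicate block took them as paired. DESeq2 1.42.0 and limma 3.58.1 were alternatives. Each method was tested on simulated data. Ratios of gene pairs used a pseudocount of 0.1 CPM. Within a week, animals are the replicates. The same animals were biopsied at each week, which the labels give. After subtraction of group means, log2 levels of 14943 genes had a median r of 0.354 over 55 pairs of biopsies of the same animal and -0.024 over 564 pairs of other animals. The intervals and the precision of low genes rest on read counts of 47 (PARP2) to 51261 (PARP14) per biopsy. All 9 genes are named in the text, and of the PARP, deltex and NAD+ lists those called at week 0 or 15. Marker lists are given by counts, and a list of signaling genes is not reported here. The genes and lists were chosen with earlier results of these data known.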

Additional observations from a re-analysis of the deposited data

Results flagged for a closer look

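In tests for 1 animal far from its group (90 groups of a gene and week, of which chance flags about 1 in 20), 9 values stood out. Of these, 6 belonged to the library of F1013 at week 3, with 48.95 CPM of PARP9 (next animal 168.6), 54.62 of DTX3L (225.7), 11.39 of PARP10 (114.3), 72.73 of PARP14 (549.5), 36.76 of PARP12 (172.0) and 11.86 of PARP8 (28.99). PARP10 in M1003 at week 11 was 108.0 CPM, with the next wIFN-α animal at 177.6. PARP2 was 6.329 CPM in the placebo animal M1011 at week 15 (next 7.324) and 5.335 CPM in the wIFN-α animal F1022 at week 19 (next 7.802).

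The effect of wIFN-α differed between week 19 and week 15 by -2.49 log2 units for DTX3L, -3.45 for PARP10, -2.16 for PARP12, -2.78 for PARP14, -2.95 for PARP8 and -2.04 for PARP9, by the test of the difference itself (edgeR).

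In M1004, a wIFN-α animal outside the comparisons, 6 of the 6 raised genes were above every placebo animal of the same week at weeks 0, 3, 7, 11 and 15. These genes were named as raised from the other wIFN-α animals at the same weeks. The share of all genes for which M1004 lay above every placebo animal is not given, so that the count is a description.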

How the results depend on the processing

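The 6 raised genes kept direction and call in 654 of 654 alternatives at weeks 0 to 15 (log2 fold change 1.65 to 3.94), which covered RLE scaling, no filter, DESeq2, limma-voom, the deepest run, sex as a covariate, M1004 included, muscle-rich biopsies left out, 1 fit of all weeks with and without the animal as a replicate block and, at weeks 0, 3 and 15, each animal left out. Leaving out each animal at week 0 was chosen after seeing the data. Counts of called genes moved in 2 cases. In 1 fit of all weeks, 1 gene (PARP1) was called at week 23. With the animal as a replicate block, 1 gene (PARP8, 0.55) differed at week 15 from weeks 0 and 3, and the block changed no other count. Different pairs at week 15 numbered 19 with a pseudocount of 1 CPM or with M1004.

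Signs turned for values near 0, none past the threshold, and the cause was not tested. The fit of single weeks with the replicate block also subtracts the group difference of week -3, so that both changed together. PARP11 at week 3 became 0.0045 under limma-voom and 0.04 without F1021 (range -0.092 to 0.04 with 1 animal left out). The PARP1 log2 fold change at week 7 became -0.0036 (RLE), -0.002 (DESeq2), -0.0027 (deepest run), -0.038 (M1004 included), -0.001 (1 fit of all weeks) and -0.11 (replicate block, relative to week -3), PARP2 at week 7 became 0.027 (the same fit), and PARP1 at week 15 became 0.059 without F1015 (range -0.13 to 0.059). For the effect at week 15 minus weeks 0 and 3, PARP1 became -0.033 with the replicate block and -0.074, -0.018 and -0.014 without F1018, M1007 and M1012 (range -0.074 to 0.11), and PARP2 became 0.014 with the block and 0.018 without M1002 (range -0.077 to 0.018). At week 19, PARP9 became 0.089 without M1008, PARP12 -0.0067 without F1014 and PARP2 0.044 without F1022. PARP2 and PARP11 had the fewest reads (47 to 576 and 95 to 936 per biopsy), and groups fell to 5 and 6 animals at week 19.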

Other observations

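Samples outside the comparisons gave these levels. M1006 (wIFN-α), labelled week 3 between scheduled biopsies, had 194 CPM of PARP9, 222 of DTX3L, 99.5 of PARP10 and 667 of PARP14. Among samples labelled as taken at death, with no week and an unknown time since a dose, M1007 (wIFN-α) had 208 CPM of PARP9, 184 of PARP10 and 983 of PARP14, and F1020 (wIFN-α) had 34.0, 15.1 and 49.1 CPM of the same genes. F1023 (wIFN-α), also taken at death, had 72.7 CPM of PARP9, 33.6 of PARP10, 180.2 of PARP14 and 88.6 of PARP12. The placebo maxima over all 81 biopsies were 74.1 CPM of PARP9, 41.2 of PARP10, 134 of PARP14 and 51.2 of PARP12. M1002 (wIFN-α) at week 25 had 47.4 CPM of PARP9 and 20.6 of PARP10. The placebo samples of M1010 and F1017 at week 17 are labelled as euthanasia samples. According to the paper, both animals were put down at that week with symptoms of terminal liver cancer. They had 13.4 and 20.6 CPM of PARP10 and 63.7 and 60.96 CPM of PARP1. The sample of F1024 (placebo), labelled as found dead, had 13.4 CPM of PARP10.

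Of the runs of M1008 (placebo) at week 15, DTX3L differed by 0.53 log2 units, the largest difference for this gene among 37 biopsies with repeat runs.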
